A study of Vitis labrusca and Vitis cinerea and Vitis acerifolia with 56 samples.

Results

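Mature berries of 2 grapes that had ripened entirely in the dark were compared gene by gene: 2 libraries titled V. labrusca, whose labelled anthocyanin concentration was 0, and 2 libraries titled V. cinerea, whose labelled concentration was above 0. The 4 libraries were chosen by species, stage and light treatment from 56 libraries of berry total RNA, and all 29971 genes of the deposited table were considered. In both groups the clusters had stayed in foil-covered boxes from early development to maturity. The V. cinerea vines are labelled as an American native species, and the V. labrusca cultivar is labelled as a hybrid of V. vinifera and V. labrusca. The descriptions attached to the V. labrusca libraries name the other species, and titles and organism entries were followed. Nothing in the labels says that the 2 replicates of a group were separate vines, so p-values measure the spread between libraries, which may be technical. The series describes V. cinerea as a grape that colours without sunlight and V. labrusca as one that needs it. The comparison asks how the transcriptomes of the 2 differ when both were kept from sunlight from early development to maturity.

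Anthocyanins, the red and blue pigments of berry skin, are made from phenylalanine. The general phenylpropanoid steps feed the chalcone and flavanone steps, after which a short late branch makes the coloured aglycone, attaches a sugar and carries the product into the vacuole. In grapevine the late branch is switched on at veraison, the onset of ripening, by a small cluster of MYB transcription factors on chromosome 2 that act together with bHLH and WD-repeat partners. Light favours the pathway in many grapes, partly through the bZIP factor HY5. The files pair no gene with a name, so the names used here rest on grapevine identifiers recalled from the literature and were not checked against an annotation.

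Colour and transcripts differed in the same 4 libraries. The labelled anthocyanin concentration, for which no unit is given, was 0 in both V. labrusca libraries and was 1.085 and 1.973 in the V. cinerea libraries, a mean of 1.53 ± 0.628 (SD, n = 2). These labelled values are part of how the 2 groups are described, so no test of them is used here. Berries of both species taken before veraison from boxes were labelled 0 throughout. In mature berries whose boxes had been removed at veraison the labelled values were 1.553 and 1.758 in V. labrusca and 5.697 and 5.307 in V. cinerea.

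The libraries matched their species titles. A set of marker genes was taken for each species from the 25 libraries harvested up to veraison. In these genes the lowest log2(FPKM + 1) of that species exceeded the highest of the other species by at least 1. A gene counted as seen in a library where it lay above the midpoint of that gap. Of 22 such genes for V. labrusca, 90.9% and 86.4% were seen in the V. labrusca dark libraries, against 0% and 4.55% in the V. cinerea ones. Of 13 such genes for V. cinerea, 84.6% were seen in each V. cinerea dark library, against 7.69% and 0% in the V. labrusca ones. Total FPKM per library, which is fragments scaled by transcript length and library total, ran from 817366 to 1054050. Read depth is unknown, because FPKM holds no counts. The 10 most abundant genes took 18.3% to 19.9% of the total in V. cinerea and 9.38% to 10.9% in V. labrusca. The 2 V. cinerea libraries were also closer to each other (Pearson r = 0.968 across 20333 genes, which are not independent replicates) than the V. labrusca pair (r = 0.928), and pairs across species lay at 0.854 to 0.863. Between replicates 840 genes stood at least 2 log2 units apart in V. labrusca and 320 in V. cinerea.

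Of 20333 genes tested on log2(FPKM + 1), 1792 passed an adjusted p under 0.05 (limma, Benjamini-Hochberg over all genes tested), which is 8.81%. In V. labrusca 744 genes (3.66%) were higher and 1048 (5.15%) lower than in V. cinerea. Among the called genes the median size of the difference was 2.01 on the log2 scale, and 167 differed by at least 4. The 2 groups did not overlap for 1789 of the called genes, while they also did not overlap for 11802 of all genes tested (58.0%), so that separation alone says little with 2 libraries a side. Leaving out 1 library reduced the number called to between 330 (without V. cinerea replicate 2) and 812 (without V. labrusca replicate 2), with 714 without V. labrusca replicate 1 and 394 without V. cinerea replicate 1. Reads of different species were assigned to a single set of grapevine gene models, so a difference in transcript level and a difference in how well reads match cannot be told apart. Likewise in bulk berries fewer cells of a type and less RNA per cell cannot be told apart.

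**Figure D1:**
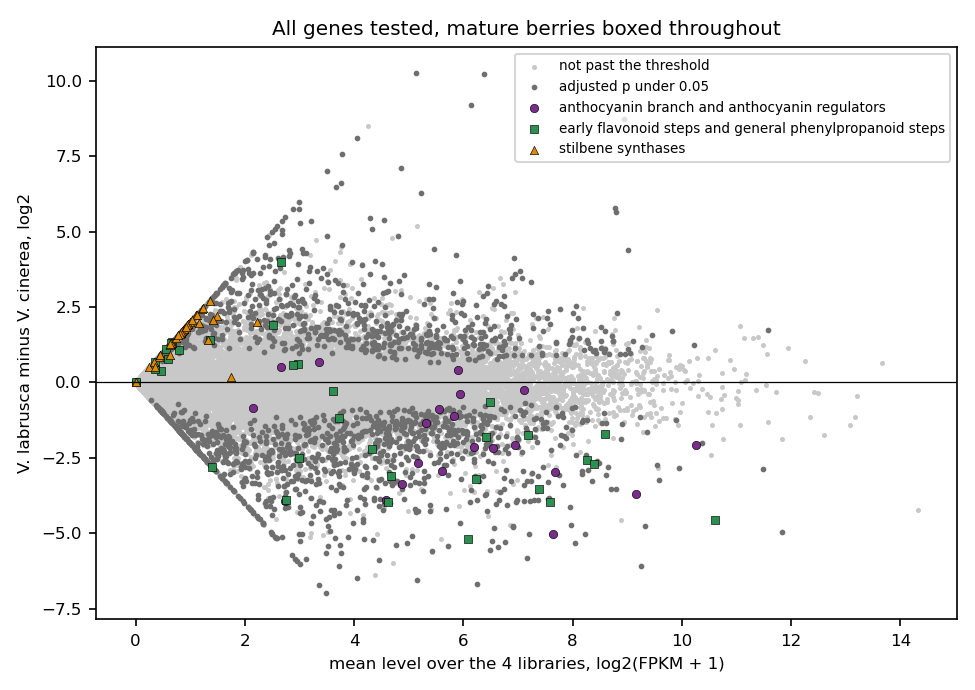
Difference V. labrusca minus V. cinerea (vertical, log2) against the mean level over the 4 dark libraries (horizontal, log2(FPKM + 1)) for all 20333 genes tested. Dark grey points passed the threshold. Most anthocyanin, early flavonoid and phenylpropanoid genes with a high mean lie below 0, and the 40 tested stilbene synthases lie at or above 0 at low means with none past the threshold.

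The late anthocyanin branch stood lower in the V. labrusca berries. Of its 9 genes, all tested, 5 were lower in V. labrusca, against 5.15% of all genes tested, and none higher. All 9 differences were negative, with a median of -2.66 on the log2 scale against 0.00 over all genes tested. The dihydroflavonol reductase gene DFR was the exception in size among them.

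UFGT (VIT_16s0039g02230), the glucosyltransferase that attaches the first sugar and stabilises the pigment, stood at 34.8 and 33.1 FPKM in the V. labrusca libraries. In the V. cinerea libraries it stood at 1149 and 1119 FPKM. Mean FPKM was thus 33.4-fold higher in V. cinerea, and the replicates of each species lay close together. The fitted difference was -5.02 on the log2 scale (SE 1.09, limma adjusted p = 0.00595). Without either V. cinerea replicate it missed the threshold, with a highest adjusted p of 0.0566 in limma and a size of 4.98 to 5.06 over the 11 alternatives.

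LDOX (VIT_02s0025g04720), the enzyme that makes the anthocyanidin itself, was at 182 and 137 FPKM in V. labrusca and at 2197 and 1888 FPKM in V. cinerea. The groups did not overlap, and the difference of -3.68 (SE 0.71, limma adjusted p = 0.00276) held in each of 11 alternatives. DFR (VIT_18s0001g12800), which acts just before it, was at 132 and 122 FPKM in V. labrusca and 140 and 160 FPKM in V. cinerea. Its difference of -0.24 (SE 0.55) did not pass the test (limma adjusted p = 0.880). Adjacent steps of the pathway showed unlike values: the DFR libraries of both species lay within a narrow band, and those of LDOX did not.

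Of the transport genes, AM3 (VIT_16s0050g00910), an anthocyanin transporter of the vacuolar membrane, was at 55.3 and 94.5 FPKM in V. labrusca and 583 and 560 FPKM in V. cinerea (difference -2.96, SE 0.54, limma adjusted p = 0.00182). Its neighbour AM1 (VIT_16s0050g00930), another transporter of that family, stood at 58.8 and 58.6 FPKM against 227 and 279 FPKM (difference -2.08, SE 0.55, limma adjusted p = 0.0193). Both were lower in V. labrusca, without overlap. AM1 lost its call when any 1 of the 4 libraries was left out (highest limma adjusted p 0.146). GST4 (VIT_04s0079g00690), the glutathione transferase that escorts anthocyanins to the vacuole, was the most abundant gene of the branch in the dark, at 457 and 781 FPKM in V. labrusca and 2220 and 2824 FPKM in V. cinerea. Its groups did not overlap either, but the difference of -2.07 did not pass (limma adjusted p = 0.245). Its error in that fit (SE 1.07) draws on the spread of all 46 libraries. In a fit on the 4 libraries alone GST4 passed (limma adjusted p = 0.024).

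The genes that decorate the pigment gave mixed results. AOMT2 (VIT_01s0010g03490), a methyltransferase gene beside the anthocyanin methyltransferase, was near 0 in V. labrusca replicate 1, at 1.91 FPKM in replicate 2, and at 20.4 and 30.1 FPKM in V. cinerea. It was lower in V. labrusca by -3.92 on the log2(FPKM + 1) scale (SE 0.73, limma adjusted p = 0.00219), which understates the change of a gene at such low levels. The methyltransferase AOMT (VIT_01s0010g03510) was at 15.5 and 11.5 FPKM against 77.5 and 104 FPKM. Its difference of -2.66 did not pass (limma adjusted p = 0.0859), and it passed at 0.0338 once the 6 libraries whose species labels are in doubt were left out. The acyltransferase 3AT (VIT_03s0017g00870) was at 34.7 and 32.1 FPKM against 68.8 and 56.9 FPKM, with a difference of -0.89 that did not pass (limma adjusted p = 0.633).

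**Figure D2:**
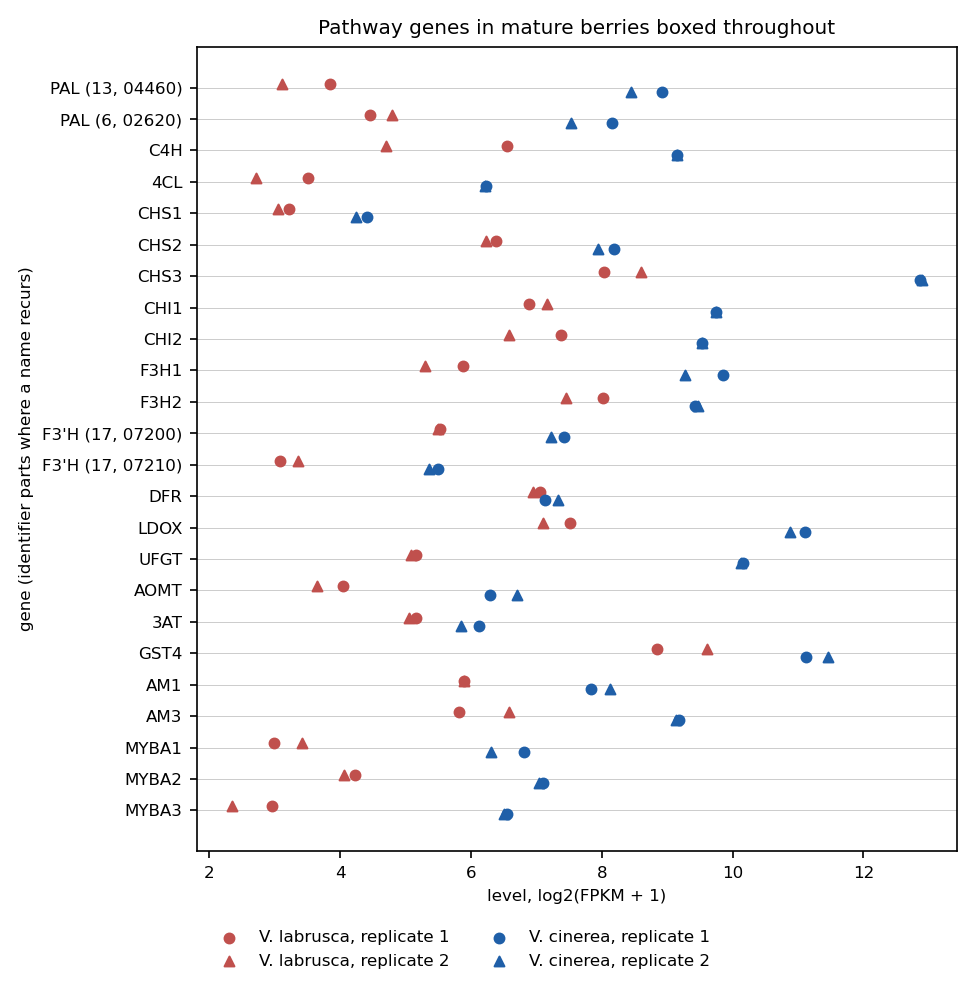
Level of 24 pathway genes (rows, from the phenylpropanoid entry at the top to the MYBA regulators at the bottom) in the 4 mature libraries boxed throughout, as log2(FPKM + 1). Each point is 1 library. The rows are a selection that leaves out the F3'5'H copies, most phenylpropanoid genes and most regulators, some of which read higher in V. labrusca. V. labrusca lies left of V. cinerea in every row; the gap is narrowest for DFR (132 and 122 against 140 and 160 FPKM) and wide for UFGT (34.8 and 33.1 against 1149 and 1119 FPKM).

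Regulators of the branch differed in the same direction where they passed the test. Of the 15 listed 14 were tested, with a median difference of -0.97. Of these 5 were lower in V. labrusca, against 5.15% of all genes tested, and none higher. The 5 lower regulators were MYBA1, MYBA2 and MYBA3 of the chromosome 2 cluster, the WD-repeat partner WDR1 and the repressor MYBC2-L1. An activator group and a repressor were thus lower in the same libraries.

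MYBA1 (VIT_02s0033g00410), the main activator of UFGT in grapevine, was at 6.98 and 9.66 FPKM in V. labrusca and 112 and 78.4 FPKM in V. cinerea. The difference of -3.36 (SE 0.61, limma adjusted p = 0.00182) held in each of 11 alternatives. MYBA2 (VIT_02s0033g00390), its functional neighbour, was at 17.8 and 15.6 FPKM against 137 and 130 FPKM. It differed by -2.93 (SE 0.68, limma adjusted p = 0.00863) and lost its call without V. labrusca replicate 2 or either V. cinerea library (highest limma adjusted p 0.0722). MYBA3 (VIT_02s0033g00450), a further member of the cluster, was at 6.74 and 4.07 FPKM against 93.2 and 89.6 FPKM. Its difference of -3.88 (SE 1.05, limma adjusted p = 0.0222) missed the threshold without any 1 of the 4 libraries and with a pseudocount of 0.1 (highest limma adjusted p 0.129). All 3 genes were separated without overlap. They are near copies of each other, so the share of reads that each received is uncertain.

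MYBC2-L1 (VIT_01s0011g04760), a MYB repressor of the flavonoid pathway, was at 58.8 and 31.3 FPKM in V. labrusca and 227 and 168 FPKM in V. cinerea. It differed by -2.16 (SE 0.42, limma adjusted p = 0.00276), with a highest adjusted p of 0.0515 in limma where V. labrusca replicate 2 or V. cinerea replicate 1 was left out. WDR1 (VIT_16s0098g00870), the WD-repeat scaffold of the MYB and bHLH complex, was at 36.6 and 31.8 FPKM against 165 and 140 FPKM. Its difference of -2.12 (SE 0.59, limma adjusted p = 0.0264) was lost without any 1 of the 4 libraries (highest limma adjusted p 0.161).

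The other tested regulators did not pass in the fit over 46 libraries. The bHLH factor MYC1 (VIT_07s0104g00090), a partner of MYBA1, was at 32.3 and 17.8 FPKM against 62.5 and 61.9 FPKM (difference -1.34, SE 0.53, limma adjusted p = 0.1196). MYB5b (VIT_06s0004g00570), a broader flavonoid activator, was at 39.7 and 36.0 FPKM against 90.7 and 76.5 FPKM (difference -1.12, limma adjusted p = 0.114). For both genes the groups did not overlap and the unadjusted p was under 0.05 (0.0189 for MYC1 and 0.0173 for MYB5b, limma). Without the 6 doubted libraries MYC1 passed at 0.00682 and MYB5b at 0.0334 (limma adjusted p), and both also passed in a fit on the 4 libraries alone, which brought the regulators called to 7. The differences of MYB5a, WRKY26, MYCA1, MYB4a and MYBC2-L3 lay between -0.83 and 0.69. MYBA5 and MYBA6, members of a second MYBA group on chromosome 14, were listed at 0 in all 4 libraries, as was MYBA7, which was not tested.

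The early flavonoid steps, from chalcone synthase to the hydroxylases of the B ring, held the largest number of called genes of any list. The lists differ in length, so this number is not a share. Of the 22 genes with listed values, 18 were tested. Of these 9 were lower in V. labrusca, against 5.15% of all genes tested, and 1 was higher, against 3.66%. The median difference of the 18 was -2.01, against 0.00 over all genes tested. CHS3 (VIT_05s0136g00260), the chalcone synthase form most tied to red berry skin, was at 261 and 389 FPKM in V. labrusca and 7490 and 7664 FPKM in V. cinerea. The difference of -4.57 (SE 0.82, limma adjusted p = 0.00170) held in each of 11 alternatives. Summed over CHS1, CHS2 and CHS3, chalcone synthase came to 352 and 470 FPKM against 7800 and 7928 FPKM, so CHS3 made up most of the family in both species.

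CHS2 (VIT_14s0068g00920) was at 82.7 and 74.0 FPKM against 290 and 245 FPKM (difference -1.76, limma adjusted p = 0.0785), and CHS1 (VIT_14s0068g00930) was at 8.29 and 7.31 FPKM against 20.2 and 17.9 FPKM (difference -1.19, limma adjusted p = 0.482). Neither passed. The 3 genes have similar sequences, which leaves the division of reads between them uncertain.

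Both chalcone isomerase genes, which close the flavonoid ring, were lower in V. labrusca. CHI2 (VIT_13s0067g02870) was at 165 and 94.5 FPKM against 743 and 740 FPKM, a difference of -2.56 (SE 0.39, limma adjusted p = 0.000408) that held in each of 11 alternatives. CHI1 (VIT_13s0067g03820) was at 118 and 142 FPKM against 856 in each V. cinerea library, a difference of -2.71 (SE 0.60, limma adjusted p = 0.00657) that was lost without V. labrusca replicate 1 or either V. cinerea library (highest limma adjusted p 0.0592). Flavanone 3-hydroxylase showed 1 called and 1 uncalled gene. F3H1 (VIT_04s0023g03370) was at 58.0 and 38.5 FPKM against 926 and 618 FPKM (difference -3.97, SE 0.95, limma adjusted p = 0.0106, highest 0.102 without 1 library). F3H2 (VIT_18s0001g14310) was at 258 and 175 FPKM against 689 and 713 FPKM (difference -1.72, limma adjusted p = 0.0519).

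The B-ring hydroxylases set whether red cyanidin-type or blue delphinidin-type pigments can form. Both F3'H genes, which lead to the cyanidin type, were lower in V. labrusca. F3'H VIT_17s0000g07210 was at 7.45 and 9.30 FPKM against 44.4 and 40.2 FPKM (difference -2.21, SE 0.48, limma adjusted p = 0.00652, highest 0.0629 without 1 library). Of the F3'5'H genes, which lead to the delphinidin type, 3 were lower and 1 was higher. F3'5'H VIT_06s0009g02860 was at 0.903 and 0.630 FPKM in V. labrusca and 30.5 and 20.3 FPKM in V. cinerea (difference -3.88, SE 0.83, limma adjusted p = 0.00547, highest 0.0663). VIT_06s0009g02920, the most abundant F3'5'H copy in V. cinerea, was at 5.76 and 4.68 FPKM against 103 and 89.3 FPKM (difference -3.96, limma adjusted p = 0.0200). That copy was picked after its values were seen. The single copy that was higher in V. labrusca, also named after its values were seen, was VIT_06s0009g03000, at 17.9 and 32.7 FPKM against 0 and 1.48 FPKM (difference 4.0, SE 1.27, limma adjusted p = 0.0496). Its call was lost when any 1 library was left out and under 4 other alternatives.

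The most abundant F3'5'H copy was not the same in the 2 species. Summed over the 13 copies in the table, F3'5'H reached 33.9 and 65.8 FPKM in V. labrusca and 182 and 141 FPKM in V. cinerea. The 2 F3'H genes summed to 52.5 and 53.3 FPKM against 216 and 188 FPKM. Their ratio, F3'5'H over F3'H, was 0.645 and 1.23 in V. labrusca and 0.843 and 0.749 in V. cinerea, so that the groups overlapped in the ratio while both sums stood apart. The copies lie side by side on chromosome 6 and resemble each other, which leaves the assignment of reads uncertain.

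At the phenylpropanoid entry the genes split. Of its 18 genes found in the files 15 were tested. Of these 4 were lower in V. labrusca, against 5.15% of all genes tested, and none higher. The median of the list was nevertheless 0.58, above that of all genes. The 4 lower genes were among the 5 most abundant of the list in V. cinerea. PAL VIT_13s0019g04460, a phenylalanine ammonia-lyase gene that opens the pathway, was at 13.3 and 7.68 FPKM in V. labrusca and 483 and 347 FPKM in V. cinerea. Its difference of -5.20 (SE 0.59, limma adjusted p = 4.04e-05) exceeded that of UFGT and held in each of 11 alternatives. PAL VIT_06s0004g02620 was at 21.03 and 26.8 FPKM against 284 and 184 FPKM (difference -3.21, SE 0.80, limma adjusted p = 0.0132, highest 0.125 without 1 library).

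Next in the pathway, C4H VIT_06s0004g08150, a cinnamate hydroxylase gene, was at 93.1 and 25.1 FPKM against 565 and 568 FPKM. The V. labrusca replicates differed widely, yet the difference of -3.52 (SE 0.56, limma adjusted p = 0.000616) held in each of 11 alternatives. 4CL VIT_16s0039g02040, a coumarate-CoA ligase gene, was at 10.4 and 5.55 FPKM against 73.9 and 73.7 FPKM (difference -3.11, SE 0.81, limma adjusted p = 0.0170, highest 0.132 without 1 library).

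Stilbene synthases use the same substrates as chalcone synthase and make resveratrol, a defence compound that grapes form on stress. They did not pass the test. Of 49 genes found in the files 40 were tested and none was called by limma, although 22 had an unadjusted p under 0.05. Their differences were positive for 39 genes, with a median of 1.66. Among the dark libraries the high values stood in 1. Summed over the 49 genes, stilbene synthase reached 492 FPKM in V. labrusca replicate 1 and 2.74 FPKM in V. labrusca replicate 2. The V. cinerea libraries gave 4.54 and 5.68 FPKM. Values above 0 were found for 40 genes in V. labrusca replicate 1, for 6 in replicate 2, and for 7 in each V. cinerea library. In berries uncovered at veraison the sums were 105 and 334 FPKM in V. cinerea and 3.11 and 42.7 FPKM in V. labrusca. Of the 40 differences there, 34 were negative and 2 positive. Over the 22 V. labrusca libraries other than the dark ones the sum ran from 0 to 287 FPKM with a median of 2.00. None exceeded that of V. labrusca dark replicate 1. Without V. labrusca replicate 2 limma called 27 of the 40 as higher in V. labrusca, and without replicate 1 it called 0 of 39.

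Other genes were high in the same library. The 9 copies of PAL on chromosome 16 summed to 24.4 FPKM in V. labrusca replicate 1, to 0 in replicate 2, and to 0.418 and 0.623 FPKM in V. cinerea. A further PAL gene, VIT_08s0040g01710, was at 55.0, 0.705, 4.66 and 6.14 FPKM in the same order of libraries, and the cinnamate hydroxylase gene VIT_11s0065g00350 at 80.1, 0.508, 1.32 and 2.71 FPKM. None of these passed the test. MYB14 (VIT_07s0005g03340), an activator of stilbene synthase genes, was at 3.63 and 0.302 FPKM in V. labrusca and at 0 in both V. cinerea libraries. Its relative MYB15 (VIT_05s0049g01020) was at 20.2 and 2.90 FPKM in V. labrusca but at 19.2 and 19.3 FPKM in V. cinerea. The phenylpropanoid list therefore held genes lower in both V. labrusca libraries and genes high in just 1 of them.

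**Figure D3:**
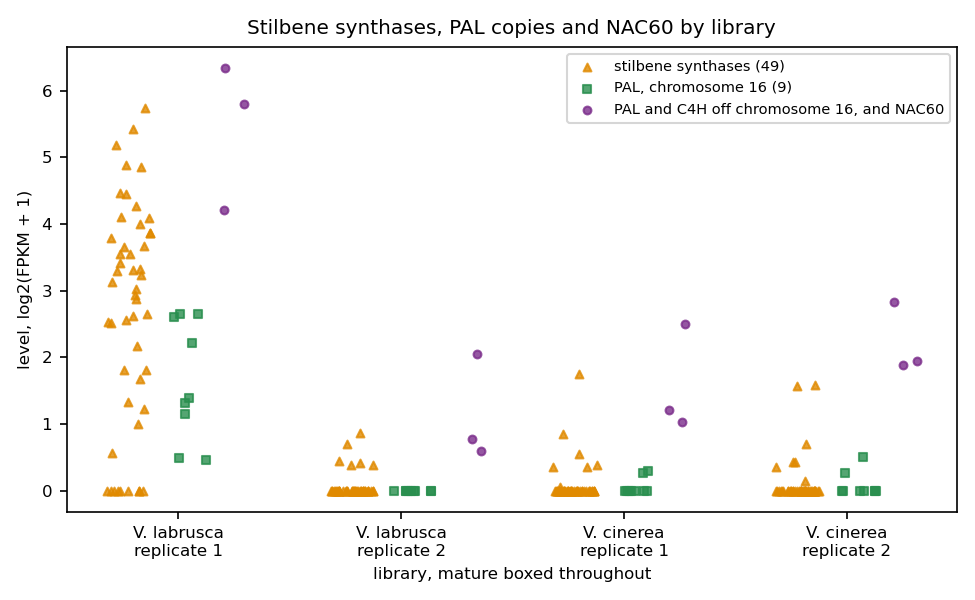
Level, as log2(FPKM + 1), of 49 stilbene synthases (triangles), 9 PAL copies on chromosome 16 (squares), and 1 PAL, 1 C4H and the NAC60 gene (circles) in each of the 4 dark libraries; points are genes, spread sideways for legibility. V. labrusca replicate 1 stands above the other 3 libraries, with a summed stilbene synthase level of 492 FPKM against 2.74, 4.54 and 5.68.

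Branches that draw on the same intermediates showed few calls. In the proanthocyanidin branch, which makes condensed tannins, 1 of 5 genes was lower in V. labrusca, against 5.15% of all genes tested, and none higher. It was the tannin activator MYBPA1 (VIT_15s0046g00170), at 1.61 and 0.863 FPKM against 21.9 and 27.7 FPKM (difference -3.54, SE 1.01, limma adjusted p = 0.0303, highest 0.169 without 1 library). The anthocyanidin reductase gene ANR (VIT_00s0361g00040), which turns anthocyanidin toward tannin, was at 12.7 and 10.2 FPKM against 5.22 and 3.05 FPKM (difference 1.31, limma adjusted p = 0.439). It was a gene with higher readings in V. labrusca, and the difference did not pass. The leucoanthocyanidin reductase gene LAR2 (VIT_17s0000g04150), of the same branch, was at 7.67 and 12.5 FPKM against 19.2 and 17.1 FPKM (difference -0.82, limma adjusted p = 0.523).

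None of 5 flavonol genes passed limma's threshold, and 1 had an unadjusted p under 0.05. That gene, a flavonol synthase (FLS VIT_18s0001g03430), was at 57.9 and 37.9 FPKM in V. labrusca and 10.2 and 7.73 FPKM in V. cinerea (difference 2.27, SE 0.73, limma adjusted p = 0.0519). It passed, as higher in V. labrusca, under 4 alternatives: on the groups alone, without the doubted libraries, without the sparse libraries and with the replicate block (limma adjusted p 0.0147 to 0.0440). FLS1 (VIT_18s0001g03470), the form known for its response to light in grape, was at 0 in both V. labrusca libraries and at 1.69 and 1.34 FPKM in V. cinerea. The V. labrusca values of the first gene lay above and those of FLS1 below the V. cinerea values, without overlap.

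Light, hormone and ripening regulators did not pass. HY5 (VIT_04s0008g05210) was at 6.37 and 10.4 FPKM in V. labrusca and 19.6 and 31.9 FPKM in V. cinerea (difference -1.50, limma adjusted p = 0.416), and its homologue HYH stayed at or below 1.03 FPKM. NCED1 (VIT_19s0093g00550), of abscisic acid synthesis, gave a difference of -0.01. NAC26 (VIT_01s0026g02710), a ripening-associated NAC factor, was at 114 and 98.4 FPKM against 38.6 and 24.4 FPKM (difference 1.75, limma adjusted p = 0.141). No p of the 4 light and abscisic acid genes was under 0.05 before adjustment, and 2 of the 3 NAC genes had such a p.

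Of the vacuolar invertases, which cleave sucrose in the ripening berry, GIN2 (VIT_02s0154g00090) was lower in V. labrusca. It stood at 51.5 and 83.9 FPKM against 474 and 461 FPKM, a difference of -2.81 (SE 0.55, limma adjusted p = 0.00323) that held in each of 11 alternatives. GIN1 (VIT_16s0022g00670) was at 48.9 and 107 FPKM against 240 and 197 FPKM, with a difference of -1.57 that did not pass (limma adjusted p = 0.517). Invertase transcripts are known to fall as grapes ripen. A scale made for each species from its own genes put its pre-veraison berries, boxed and sunlit, at 0 and its mature uncovered berries at 1. The V. labrusca dark libraries lay at 0.519 and 0.448 (2087 genes) and the V. cinerea ones at 0.376 and 0.396 (2974 genes). Berries at the upper end had seen sunlight, so ripening and light cannot be told apart on this scale. The values of the 2 species are not on a common scale. The part of ripening stage in the gene differences was not tested.

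The same species difference was then taken in mature berries whose boxes had been removed at veraison. There 278 genes passed (1.37%), 124 higher (0.610%) and 154 lower (0.757%) in V. labrusca, with 159 higher and 106 lower after median-ratio scaling. An unadjusted limma p under 0.05 was found for 4285 genes after uncovering and for 4785 in the dark. Without the 6 doubted libraries 2366 genes passed after uncovering and 2612 in the dark. The number of calls is therefore no measure of the size of the species difference in the 2 treatments. None of the 9 anthocyanin branch genes was called by limma, 3 had an unadjusted p under 0.05, and 7 of the 9 differences were positive, with a median of 1.62. UFGT was at 248 and 177 FPKM in V. labrusca and 90.0 and 50.7 FPKM in V. cinerea (difference 1.62, limma adjusted p = 0.419). Its libraries were ordered the other way round from the dark, though the difference did not pass. Of 18 early flavonoid genes 3 were higher in V. labrusca and none lower, all of them F3'5'H copies. Of the named genes only NCED VIT_10s0003g03750, an abscisic acid synthesis gene, passed, at 107 and 25.0 FPKM against 2.73 and 1.12 FPKM (difference 4.23, SE 1.06, limma adjusted p = 0.0461, highest 0.353 without 1 library). The V. cinerea uncovered libraries showed less of the V. cinerea set of marker genes (30.8% and 38.5%) than the dark ones. Their 10 most abundant genes took 35.8% to 37.3% of the FPKM, against 23.7% to 24.4% in V. labrusca. The part of either in these values was not tested.

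Whether the species difference depended on uncovering at veraison was tested directly, as the difference in the dark minus that after uncovering. Light and how far the berries had ripened cannot be told apart in this test. The dependence on light named below refers to this test. Over all genes 135 passed (0.664%), 69 above 0 (0.339%) and 66 below 0 (0.325%), with 48 above and 83 below after median-ratio scaling. Of the anthocyanin branch 3 of 9 genes passed, all below 0, and all 9 estimates were negative with a median of -3.50 against 0.04 over all genes. Of the 14 regulators 4 passed, of 18 early flavonoid genes 2, and of 15 phenylpropanoid genes 1, all below 0. In these genes the standing of V. labrusca relative to V. cinerea was lower in the dark than after uncovering. The comparison shares its dark libraries with the dark contrast itself, so it is no independent support for it.

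PAL VIT_13s0019g04460 had the smallest p of the named genes. It was at 13.3 and 7.68 FPKM in V. labrusca in the dark and at 228 and 262 FPKM after uncovering, while V. cinerea stood at 483 and 347 FPKM in the dark and at 155 and 131 FPKM after uncovering. The difference of the species differences was -5.98 (SE 0.83, limma adjusted p = 0.000660) and passed in each of 16 alternatives. LDOX went from 182 and 137 FPKM to 1047 and 982 FPKM in V. labrusca, and from 2197 and 1888 FPKM to 520 and 196 FPKM in V. cinerea. Its value was -5.34 (SE 1.005, limma adjusted p = 0.0138, highest 0.0804 without 1 library). Dark libraries thus held the low values in V. labrusca and the high values in V. cinerea.

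UFGT gave -6.64 (SE 1.54, limma adjusted p = 0.0445), a call that was lost in 11 of 16 alternatives, among them the omission of each of the 8 libraries (highest limma adjusted p 0.198). AM3 was at 310 and 245 FPKM in V. labrusca and 137 and 154 FPKM in V. cinerea after uncovering, and gave -3.89 (limma adjusted p = 0.0180, highest 0.121). MYBA3 was at 182 and 108 FPKM against 6.58 and 9.25 FPKM after uncovering, the reverse order of the dark libraries, and gave -7.88 (limma adjusted p = 0.0139, highest 0.107). MYBA2 gave -4.74 (limma adjusted p = 0.0215), MYBA1 -3.93 (limma adjusted p = 0.0337) and the repressor MYBC2-L1 -2.72 (limma adjusted p = 0.0330), each losing its call without some single libraries. CHI2 gave -2.50 (limma adjusted p = 0.0337, highest 0.162). CHS2, the other early flavonoid gene that passed, was at 953 and 829 FPKM in V. labrusca and 217 and 226 FPKM in V. cinerea after uncovering and gave -3.76 (SE 0.88, limma adjusted p = 0.0472, lost in 11 of 16 alternatives, highest 0.200). CHS3 gave -4.72 and did not pass (limma adjusted p = 0.0562), though it passed under 6 alternatives (limma adjusted p 0.0106 to 0.0494). Of the 9 genes named by rule that passed, 1 passed without V. cinerea dark replicate 1, 1 without replicate 2 and 1 without V. labrusca uncovered replicate 1, and each time it was the PAL gene of chromosome 13. Within V. cinerea the pigment label did not follow UFGT. Of the mature boxed and uncovered berries, uncovered V. cinerea carried the highest labelled values, 5.697 and 5.307, at 90.0 and 50.7 FPKM of UFGT. Dark V. cinerea berries were labelled 1.085 and 1.973 at 1149 and 1119 FPKM. Within V. labrusca both were higher after uncovering: 1.553 and 1.758 at 248 and 177 FPKM, against 0 at 34.8 and 33.1 FPKM in the dark. A pigment concentration and a transcript level at 1 harvest are unlike measures.

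**Figure D4:**
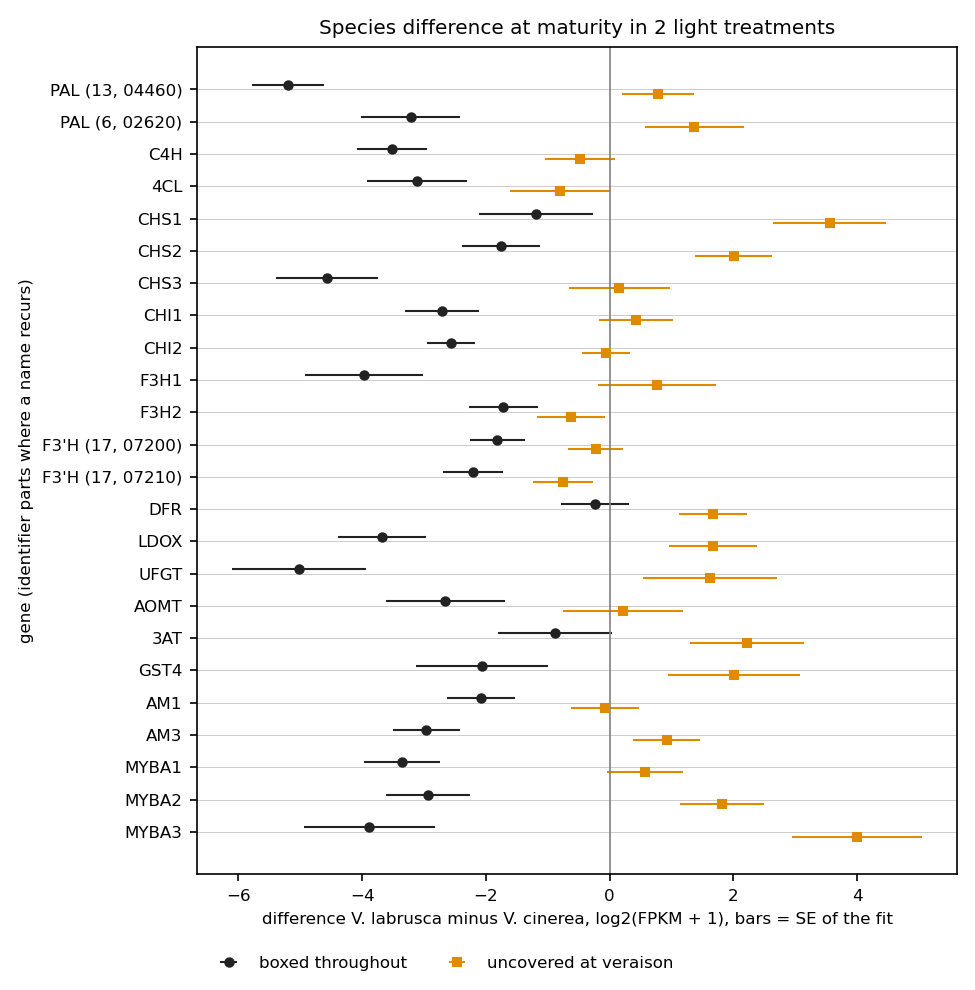
Species difference V. labrusca minus V. cinerea on log2(FPKM + 1) for the same 24 genes in mature berries boxed throughout (circles) and uncovered at veraison (squares); bars are the standard error of the fit, n = 2 libraries per species and treatment. In the dark every estimate shown is negative, and after uncovering the estimates lie on both sides of 0, for UFGT at -5.02 and 1.62. The genes shown are a selection. Over the full lists the dark differences were negative for 5 and positive for 10 of 15 phenylpropanoid genes. They were negative for 14 and positive for 3 of 18 early flavonoid genes, and negative for 9 and positive for 3 of 14 regulators.

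Berries taken before veraison, also in boxes, show the species difference at an earlier stage without light and in other libraries. There 805 genes passed (3.96%), 400 higher (1.97%) and 405 lower (1.99%) in V. labrusca. Of the genes higher in V. labrusca in the dark at maturity, 141 were also higher before veraison, which is 19.0% of the mature list and 35.2% of the pre-veraison one. Of the genes lower at maturity 129 were also lower before veraison (12.3% and 31.9%). Opposite calls were made for 7 genes: 2 of those higher at maturity and 5 of those lower.

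No anthocyanin branch gene or regulator was called before veraison by limma, with an unadjusted p under 0.05 for 0 of 9 and 2 of 14. UFGT was at 0 and 1.31 FPKM in V. labrusca and 0.463 and 0.347 FPKM in V. cinerea at that stage, and MYBA3 was listed at 0 in all 4 libraries. Upstream the order of the mature berries was already present for some genes. CHS3 was at 20.1 and 69.8 FPKM in V. labrusca and 366 and 530 FPKM in V. cinerea (difference -3.51, limma adjusted p = 0.0130, highest 0.240 without 1 library). CHI2 was at 60.9 and 51.4 FPKM against 227 and 194 FPKM (difference -1.89, limma adjusted p = 0.00461, highest 0.0599). C4H VIT_06s0004g08150 was at 20.7 and 17.8 FPKM against 106 and 78.3 FPKM (difference -2.19, limma adjusted p = 0.0249, highest 0.189). These 3 upstream genes were lower in V. labrusca at both stages.

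Of the 5 proanthocyanidin genes 2 were lower in V. labrusca before veraison, against 1.99% of all genes tested, and none higher. MYBPA1 was at 1.98 and 11.8 FPKM in V. labrusca and 66.1 and 202 FPKM in V. cinerea (difference -4.24, limma adjusted p = 0.0156, highest 0.257 without 1 library). LAR2 was at 3.46 and 8.20 FPKM against 50.1 and 51.1 FPKM (difference -3.01, limma adjusted p = 0.0114, highest 0.178). LAR2 passed here and not at maturity, and the change between stages did not pass its own test (2.19, limma adjusted p = 0.468).

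Tested over all genes, the species difference in the dark changed between pre-veraison and maturity for 128 genes (0.630%), 58 above 0 (0.285%) and 70 below 0 (0.344%). Of the named genes 2 passed. PAL VIT_13s0019g04460 went from 1.67 and 3.63 FPKM to 13.3 and 7.68 FPKM in V. labrusca and from 6.78 and 4.41 FPKM to 483 and 347 FPKM in V. cinerea (difference of differences -4.32, limma adjusted p = 0.0117, highest 0.0683 without 1 library). MYBA1 went from 0.338 and 0.400 FPKM to 6.98 and 9.66 FPKM in V. labrusca and from 0 to 112 and 78.4 FPKM in V. cinerea (-3.81, limma adjusted p = 0.0361, highest 0.181). UFGT, at -5.14, did not pass (limma adjusted p = 0.164).

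**Figure D5:**
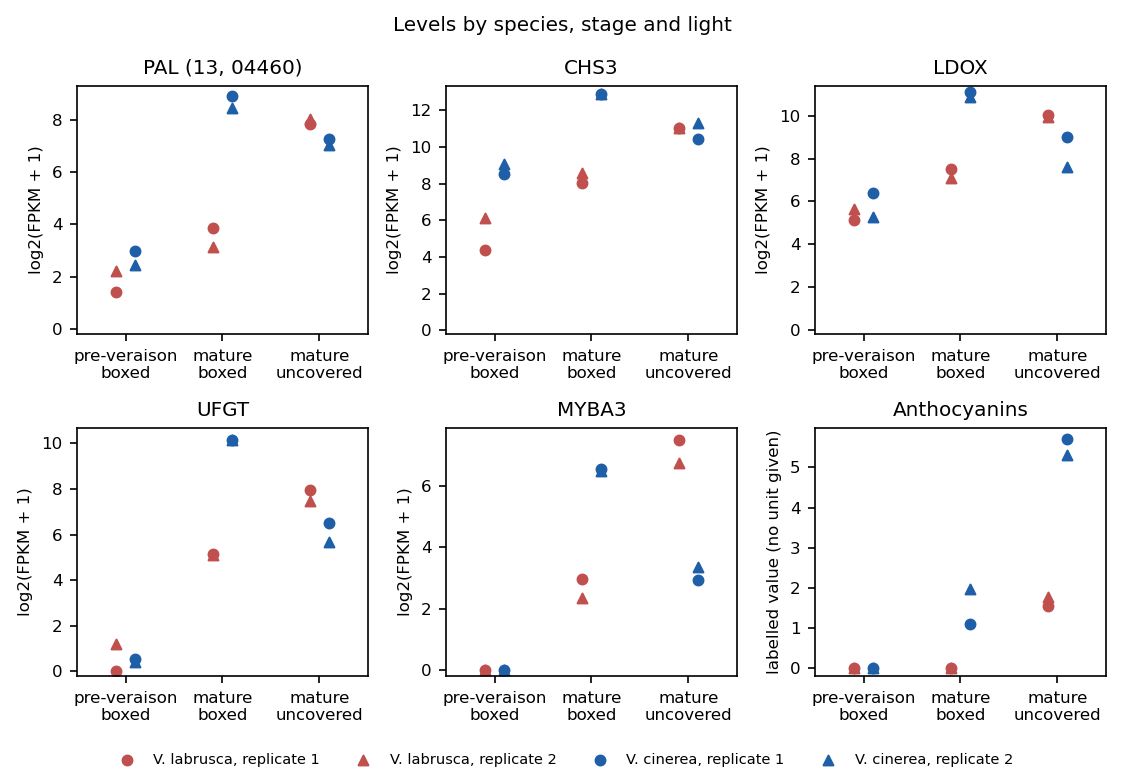
Level of 5 genes as log2(FPKM + 1), and the labelled anthocyanin value (last panel, no unit given), in pre-veraison boxed, mature boxed and mature uncovered berries; each point is 1 library. In mature boxed berries V. cinerea stands above V. labrusca for every gene shown (UFGT 1149 and 1119 against 34.8 and 33.1 FPKM), whereas, of the conditions shown, the labelled pigment of V. cinerea is highest in uncovered berries (5.697 and 5.307).

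The largest differences of the table lay outside these lists, in genes for which no name is given here. VIT_09s0018g01490 was at 2909 and 2846 FPKM in V. labrusca and at 0 and 4.70 FPKM in V. cinerea (difference 10.24, SE 2.35, limma adjusted p = 0.00832, highest 0.104 without 1 library). VIT_18s0001g12740 was at 1262 and 1184 FPKM in V. labrusca and listed at 0 in both V. cinerea libraries (limma adjusted p = 0.0485, lost in 8 of 11 alternatives). In the other direction VIT_01s0026g02520 was listed at 0 in V. labrusca and at 127 and 124 FPKM in V. cinerea (limma adjusted p = 0.0155, highest 0.101), and VIT_06s0009g02800 was at or near 0 against 112 and 94.5 FPKM (limma adjusted p = 0.0181, highest 0.115). VIT_18s0001g12740 was listed at 0 in every V. cinerea dark, uncovered and pre-veraison boxed library and stood between 865 and 1517 FPKM in the V. labrusca ones. In mature sunlight it went against the titles, at 0 in V. labrusca replicate 2 and at 1602 FPKM in V. cinerea replicate 1. Both are among the libraries whose species labels are in doubt. They enter a compared group only in the alternative with mature sunlight as the light reference.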

How the data were processed

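The authors deposited FPKM values per gene and library, and the submitters' processing notes name TopHat2 2.0.14 and Cufflinks 2.2.1. The genome build they used is not stated in those notes or in the labels. Neighbouring low values gave no whole reads, so counts were not recovered and depth is unknown. Every column of the table matched 1 sample title.

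Values were analysed as log2(FPKM + 1) with limma 3.58.1 in R 4.3.3 (empirical Bayes with trend), for genes with at least 1 FPKM in at least 2 libraries (20333 of 29971). A single fit covered the 46 V. labrusca and V. cinerea libraries with a coefficient for each of 25 groups and 21 residual degrees of freedom, so the spread was shared, and 4 groups of 1 library were assumed to vary like the rest. The p-values were Benjamini-Hochberg adjusted over all genes tested, at 0.05. The fit was tested on simulated data. The groups share libraries with the light and stage tests.

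The members and gene lists were chosen with earlier results of these data known. There were 12 lists by identifier, with 136 genes, of which 134 were in the table and 117 tested. Lists for light harvesting, carbon fixation, lignin, terpene synthases, cell wall, heat shock, defence, ethylene, auxin, cell division and seed markers needed gene descriptions and were not formed. Named were every anthocyanin branch gene and regulator, up to 6 genes of each other list by smallest p, and the 2 higher and 2 lower called genes with the largest difference at a mean of at least 5 FPKM. Any other named gene completes a family or a count.

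Earlier results put the species labels of 6 libraries in doubt and found 3 sparse in low values. Mature sunlight berries include doubted libraries of both species, so berries uncovered at veraison served as the light reference. Alternatives were a pseudocount of 0.1, no filter, median-ratio scaling, a fit on the groups compared alone, leaving out the doubted, the sparse or single libraries, a replicate block, and mature sunlight as the light reference.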

Additional observations from a re-analysis of the deposited data

Results flagged for a closer look

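For 9 genes named by rule the species difference in the dark differed from that in berries uncovered at veraison, by limma's test of the difference itself (V. labrusca minus V. cinerea, dark minus uncovered, log2 scale, 2 libraries in each of the 4 groups). The values were -5.34 for LDOX, -6.64 for UFGT, -3.89 for AM3, -3.93 for MYBA1, -4.74 for MYBA2, -7.88 for MYBA3, -2.72 for MYBC2-L1, -2.50 for CHI2 and -5.98 for the PAL gene VIT_13s0019g04460. CHS2, named in the text to complete its family, also passed, at -3.76. The PAL value passed in each of 16 alternatives, and the other 8 named by rule were lost in 4 to 11 of them, mostly where a single library was left out. For 2 named genes the species difference in the dark differed between maturity and pre-veraison, at -3.81 for MYBA1 and -4.32 for the same PAL gene. MYBA1 lost that call when any 1 of the 8 libraries was left out, and PAL without V. cinerea dark replicate 1 or V. cinerea pre-veraison replicate 2.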

How the results depend on the processing

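No named gene that passed in any comparison changed its direction under an alternative. In the dark the 1792 calls became 3403 in a fit on the 4 libraries alone and 330 to 812 when 1 library was left out. The 6 doubted libraries enter none of the groups of the main comparisons but share in the estimate of spread. Some of them enter the alternative with mature sunlight as the light reference. Without the 6 doubted libraries 2612 genes passed in the dark. Of 26 named genes called in the dark, 9 passed in each of 11 alternatives (LDOX, AOMT2, AM3, MYBA1, CHI2, CHS3, PAL VIT_13s0019g04460, C4H VIT_06s0004g08150 and GIN2), and 9 to 14 remained when 1 library was left out. Named genes not called in the dark were gained as well: 9 in the fit on the 4 libraries alone (among them GST4, 3AT, HY5 and NAC26), 6 without the doubted libraries (AOMT, MYC1, MYB5b, FLS and 2 stilbene synthases), and 8 without V. labrusca replicate 2, all of them PAL or stilbene synthase genes.

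After uncovering the 278 calls became 124 with a pseudocount of 0.1, 178 with no filter, 1526 on the groups alone, 2366 without the doubted libraries, 495 without the sparse ones, 536 with the replicate block and 6 to 55 without 1 library. Before veraison the 805 became 509 with a pseudocount of 0.1 and 300 to 392 without 1 library. For the dependence on light the 135 became 890 on the groups alone, 446 without the doubted libraries, 239 without the sparse ones, 262 with mature sunlight as reference and 13 to 181 without 1 library. For the dependence on stage the 128 became 72 with a pseudocount of 0.1, 241 on the groups alone, 193 without the sparse libraries and 37 to 202 without 1 library. The cause of these moves was not tested, except that omitting a library also leaves fewer samples.

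Replicates of the 2 species share a number only: the deviations of same-numbered dark libraries correlated at 0.0062 across genes. With the replicate block 1965 genes passed in the dark, 914 before veraison, 130 for light and 143 for stage, and no named call was lost, while FLS in the dark and CHS3 for light were gained.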

Other observations

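Of the 1048 genes lower in V. labrusca in the dark, 126 (12.0%) were listed at 0 in both V. labrusca dark libraries. Of these, 4 were at 0 in all 24 V. labrusca libraries. Of the 744 genes higher in V. labrusca, 100 (13.4%) were listed at 0 in both V. cinerea dark libraries. Of these, 2 were at 0 in all 22 V. cinerea libraries. The share at 0 over all genes tested was not taken, so these counts have no reference. The share of tested genes called in the dark ranged from 5.81% on chromosome 9 to 11.6% on chromosome 2, against 8.81% of all genes tested.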
